A study of Mus musculus with 6 samples.

Results

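Toll-like receptors 1 to 9 and their adaptor Myd88 were described in the whole epididymis of adult mice with and without occludin, the tight junction protein that Ocln encodes. These 10 genes were taken from the deposited count table by symbol, out of 57127 symbols listed, and all 10 had counts and were abundant enough to be tested among 19691 genes. The WT group held 3 libraries of wild type C57BL/6 mice, and the Ocln-KO group held 3 libraries of C57BL/6 mice with the genotype Ocln-/-. The deletion is carried by every cell of the animal, and the Ocln-KO mice were bred from heterozygous parents. Animals of both genotypes were kept under specific pathogen-free conditions, and the labels name no other treatment. Total counts per library were between 30646424 and 38870780, and values are given as CPM, the count of a gene scaled to a common library size with edgeR's TMM factors, in which 1 count equals 0.0267 to 0.0314 CPM.

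Toll-like receptors are membrane proteins that recognise conserved microbial molecules and some molecules released by damaged host cells. Tlr1, Tlr2, Tlr4, Tlr5 and Tlr6 act mainly at the cell surface on lipoproteins, lipopolysaccharide and flagellin, while Tlr3, Tlr7, Tlr8 and Tlr9 act in endosomes on nucleic acids. All of them except Tlr3 signal through Myd88, which recruits the Irak kinases and leads to NF-kB and, downstream of the endosomal receptors, to interferon regulatory factors. In the male tract these receptors are found on epithelial cells as well as on leukocytes, and the epididymis is exposed both to bacteria that ascend the duct and to sperm antigens.

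Ocln had 85.9, 78.8 and 91.8 CPM in the WT libraries and 15.1, 15.3 and 14.9 CPM in the Ocln-KO libraries, so the residual level was similar in each of the latter. Of the 6 principal cell genes used to check the tissue, Crisp1, Spink8 and Rnase9 were abundant in each library, at 1511 CPM or more, whereas Lcn8 had 0.781 to 2.3 CPM and Lcn9 and Adam28 had at most 4 and 5 counts. On the first principal component of log2 CPM, which held 47.2% of the variance, Ocln-KO replicate 3 lay at 86.3 and the other Ocln-KO libraries at 17.7 and 29.1. Values are therefore given library by library, and the fits were repeated without this library.

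Of the 10 genes, 2 rose in Ocln-KO and 0 fell at an adjusted p threshold of 0.05 in the quasi-likelihood test of edgeR, adjusted by Benjamini-Hochberg over all genes tested. Those that rose were Tlr1, which pairs with Tlr2 to recognise triacylated lipoproteins, and Tlr5, the receptor of bacterial flagellin. Among all genes tested, 3.91% were higher and 5.04% were lower by the same rule. The log2 fold change was above 0 for 9 of the 9 receptors, with a median of 0.81 and a range from 0.57 to 1.66, while it was above 0 for 50.9% of all genes, whose median was 0.01. Every Ocln-KO library lay above every WT library for 8 of the 10 genes, against 16.9% of all genes tested. An unadjusted p under 0.05 with a higher level in Ocln-KO was found for 8 of the 10 genes and for 13.9% of all genes. DESeq2 called 7 of the 10 genes higher, against 8.15% of all genes, so the number past the threshold depended on the tool. The genes are not independent of each other, and these shares are a description.

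**Figure D1:**
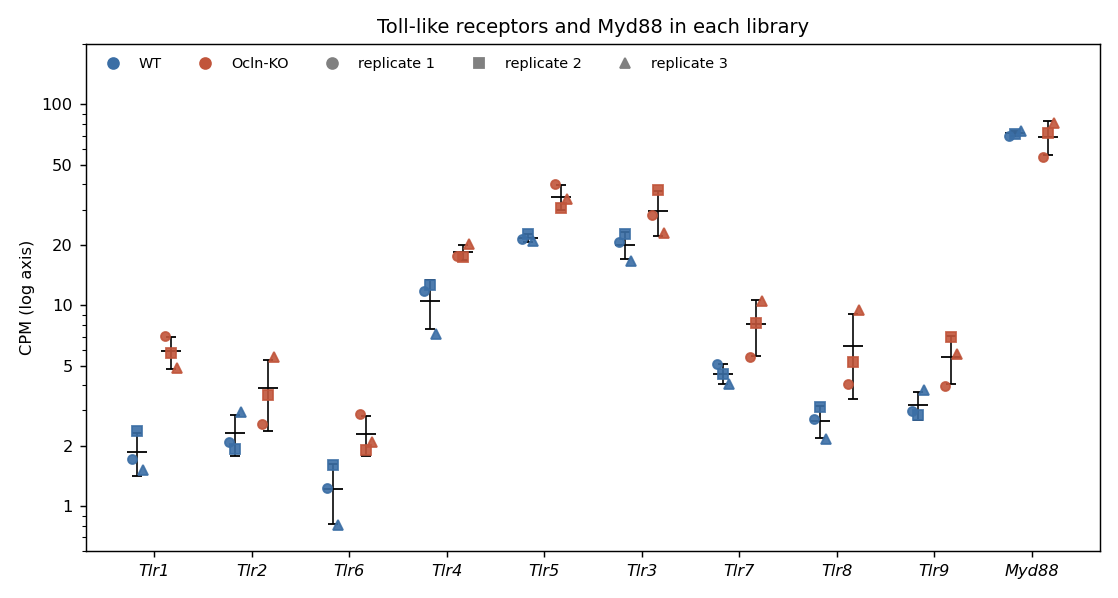
CPM of Tlr1 to Tlr9 and Myd88 on a log axis, with a point for each of the 3 WT and 3 Ocln-KO libraries, a marker shape for each replicate number and black bars for the mean ± SD. The Ocln-KO points lie above all WT points for 8 genes, and those of Tlr2 and Myd88 overlap between genotypes.

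**Figure D2:**
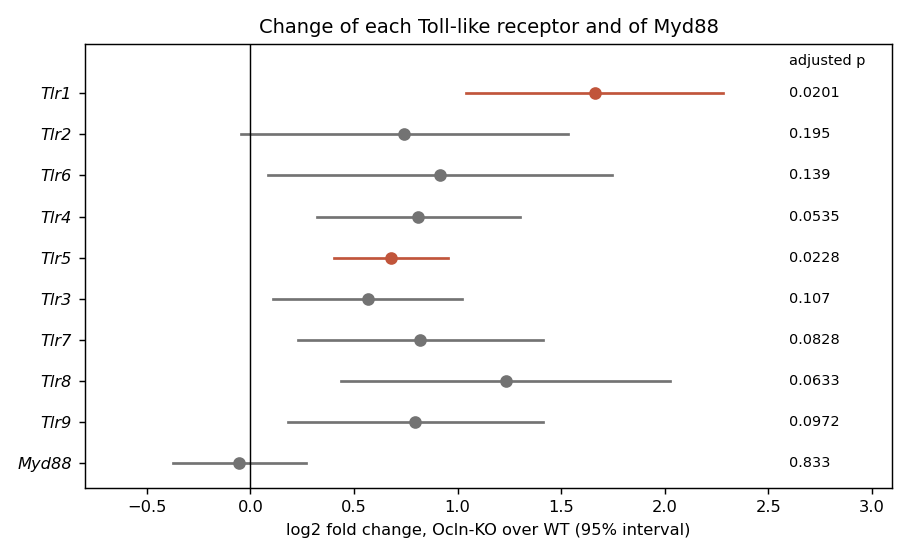
log2 fold change of each gene, Ocln-KO over WT, with its 95% interval from edgeR's quasi-likelihood fit and the adjusted p at the right. Genes with an adjusted p under 0.05, Tlr1 and Tlr5, are in red and the others in grey; the intervals of Tlr2 and Myd88 include 0.

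The lipoprotein receptors come first. Tlr1 (chromosome 5, 64924680 to 64933600 of GRCm38.p6, minus strand; coordinates from RefSeq) had 1.71, 2.37 and 1.51 CPM in the WT libraries against 7.01, 5.81 and 4.88 CPM in the Ocln-KO libraries, from 56 to 81 and from 165 to 225 counts. The Ocln-KO libraries were all above the WT libraries, and the lowest of them was Ocln-KO replicate 3. The means were 1.86 ± 0.453 and 5.90 ± 1.07 CPM (SD, n = 3 each), and the log2 fold change was 1.66 (standard error, SE, 0.27, 95% interval 1.04 to 2.28, adjusted p = 0.0201 by edgeR). Of the genes called, Tlr1 alone was also over 2-fold higher, as were 1.49% of all genes tested. Without WT replicate 1 or WT replicate 3 its adjusted p was 0.0970 and 0.0832, and its log2 fold change was 1.60 and 1.53. Tlr1 and its neighbour Tlr6 share identical stretches, which hold 4.83% of the 150-base windows of the Tlr1 exons and 3.94% of those of Tlr6, and how the authors' counting treated reads from them is not given in the sources used here.

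Tlr2, the partner of both Tlr1 and Tlr6, lies on chromosome 3 from 83836272 to 83841824. It had 2.08, 1.93 and 2.94 CPM in the WT libraries against 2.56, 3.58 and 5.50 CPM in the Ocln-KO libraries. Here the genotypes overlapped, since WT replicate 3 lay above Ocln-KO replicate 1, and Ocln-KO replicate 3 was the highest. Its log2 fold change of 0.74 (SE 0.34, 95% interval -0.05 to 1.53) had an adjusted p of 0.195 by edgeR. Tlr6, which with Tlr2 recognises diacylated lipoproteins, lies next to Tlr1 from 64953092 to 64970942. It had 1.23, 1.61 and 0.808 CPM in the WT libraries against 2.87, 1.91 and 2.10 CPM in the Ocln-KO libraries. Its genotypes did not overlap, but only 30 to 92 counts stood behind each value. Tlr6 had a log2 fold change of 0.92 (SE 0.36, adjusted p = 0.139 by edgeR).

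Since both genes pair with Tlr2, their levels were also set against it per kb of exon. The ratio of Tlr1 to Tlr2 was 0.739, 1.11 and 0.463 in WT and 2.47, 1.46 and 0.799 in Ocln-KO, so that it overlapped between genotypes. The ratio of Tlr1 to Tlr6 was 1.55, 1.64 and 2.08 in WT and 2.72, 3.38 and 2.59 in Ocln-KO. For Tlr6 to Tlr2 the ratio was 0.477, 0.674 and 0.223 in WT and 0.907, 0.433 and 0.309 in Ocln-KO, which overlapped. Of the 3 ratios only that of Tlr1 to Tlr6 was free of overlap between genotypes, and with 3 libraries against 3 an exact permutation test cannot give a two-sided p under 0.1. The ratios were chosen after the values of the genes were seen.

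Tlr4, which recognises lipopolysaccharide with Ly96 and Cd14, lies on chromosome 4 from 66827551 to 66846581. Its level was 11.8, 12.6 and 7.24 CPM in the WT libraries against 17.7, 17.4 and 20.3 CPM in the Ocln-KO libraries. The genotypes did not overlap, and WT replicate 3 was well below the other WT libraries. Tlr4 had a log2 fold change of 0.81 (SE 0.21, 95% interval 0.32 to 1.3), and its adjusted p of 0.0535 by edgeR narrowly missed the threshold. DESeq2, limma-voom and scaling by total counts gave 0.00474, 0.0440 and 0.0389. Tlr4 passed in 5 of 13 alternative settings, and in none with a library left out. Without WT replicate 3 the adjusted p was 0.103 by edgeR and the log2 fold change 0.60.

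Tlr5 (chromosome 1, 182954752 to 182976044, plus strand) was measured with the most counts per library of the surface receptors, from 777 to 1283. It had 21.4, 22.8 and 21.0 CPM in the WT libraries against 40.0, 30.5 and 33.8 CPM in the Ocln-KO libraries. The WT libraries were close together and all lay below the Ocln-KO libraries, of which replicate 1 was the highest. With means of 21.7 ± 0.945 and 34.8 ± 4.8 CPM (SD, n = 3 each), Tlr5 changed by 0.68 on the log2 scale (SE 0.12, 95% interval 0.40 to 0.96, adjusted p = 0.0228 by edgeR). Without WT replicates 1, 2 and 3 the adjusted p was 0.104, 0.0648 and 0.0932, while the log2 fold change stayed between 0.57 and 0.77 under the settings tried.

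None of the 4 endosomal receptors had an adjusted p under 0.05 by edgeR. All 4 had an unadjusted p under 0.05 with a higher level in Ocln-KO, against 13.9% of all genes. DESeq2 called all 4 higher, against 8.15% of all genes. With limma-voom 0 of them were called, and 729 of the 19691 genes tested were called higher. Tlr8, a sensor of RNA in endosomes, had the highest log2 fold change of them. Its level was 2.73, 3.11 and 2.15 CPM in the WT libraries against 4.08, 5.21 and 9.47 CPM in the Ocln-KO libraries. The genotypes did not overlap, and Ocln-KO replicate 3 was far above the other Ocln-KO libraries. On the log2 scale the change was 1.23 (SE 0.34, adjusted p = 0.0633 by edgeR), and 0.80 without Ocln-KO replicate 3 (adjusted p = 0.0982). Without Ocln-KO replicate 1 it was 1.47 and passed (adjusted p = 0.0397).

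Tlr7, which lies beside Tlr8 on chromosome X (167303380 to 167330574, and 167241123 to 167264329 for Tlr8) and recognises RNA rich in guanosine and uridine, had the same order of Ocln-KO libraries. It had 5.11, 4.57 and 4.07 CPM in the WT libraries against 5.55, 8.19 and 10.5 CPM in the Ocln-KO libraries. Ocln-KO replicate 1 lay just above the highest WT library, and replicate 3 was again the highest. For Tlr7 the log2 fold change was 0.82 (SE 0.26, adjusted p = 0.0828 by edgeR), and it was 0.59 without Ocln-KO replicate 3 (adjusted p = 0.156). Without Ocln-KO replicate 1 the log2 fold change was 1.04 and passed (adjusted p = 0.0360).

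Tlr9, the sensor of unmethylated CpG DNA on chromosome 9 (106222598 to 106226876), had 2.97, 2.84 and 3.80 CPM in the WT libraries against 3.99, 6.97 and 5.74 CPM in the Ocln-KO libraries. The genotypes were only just apart, with WT replicate 3 next to Ocln-KO replicate 1. For Tlr9 the log2 fold change was 0.80 (SE 0.27, adjusted p = 0.0972 by edgeR). Tlr3, the sensor of RNA duplexes, which signals through Ticam1 and not through Myd88, lies on chromosome 8 from 45395665 to 45411075. Its level was 20.8, 22.7 and 16.6 CPM in the WT libraries against 28.2, 37.7 and 22.9 CPM in the Ocln-KO libraries. The genotypes were again barely apart, with Ocln-KO replicate 3 at about the level of WT replicate 2. Its log2 fold change was 0.57 (SE 0.20, adjusted p = 0.107 by edgeR), the lowest of the receptors, and 0.72 without Ocln-KO replicate 3 (adjusted p = 0.0405). Without Ocln-KO replicate 2, the highest for Tlr3, it was 0.36 (adjusted p = 0.257 by edgeR). The exons of Tlr3 overlap those of the antisense gene Gm45542 by 381 bases (7.3% of its exon length), and the strand setting of the counting is not given in the sources used here.

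Myd88, on chromosome 9 from 119335934 to 119340018, encodes the adaptor shared by the receptors other than Tlr3. It had 69.9, 71.5 and 73.9 CPM in the WT libraries against 54.8, 72.0 and 80.6 CPM in the Ocln-KO libraries. The Ocln-KO libraries lay on both sides of the WT libraries, which were close together. The log2 fold change was -0.05 (SE 0.14, 95% interval -0.38 to 0.27, adjusted p = 0.833 by edgeR). It was 0.03 when scaled by total counts and 0.09 without Ocln-KO replicate 1, and did not pass in either setting. Exons of Acaa1a on the other strand overlap 11.3% of its exon length, so the unknown strand setting bears on Myd88 too.

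The receptors did not all peak in the same library. Of the 3 Ocln-KO libraries, replicate 1 was the highest for Tlr1, Tlr5 and Tlr6, replicate 2 for Tlr3 and Tlr9, and replicate 3 for Tlr2, Tlr4, Tlr7, Tlr8 and Myd88. Tlr2, Tlr7, Tlr8, Tlr9 and Myd88 were lowest in Ocln-KO replicate 1. Summed over the 9 receptors, the level was nonetheless similar among the Ocln-KO libraries, at 112, 117 and 115 CPM, and between 60.1 and 74.4 CPM in WT. The surface receptors held 33.5 to 41.3 CPM in WT and 59.2 to 70.1 CPM in Ocln-KO, and the endosomal receptors 26.6 to 33.2 CPM and 41.9 to 58.0 CPM.

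**Figure D3:**
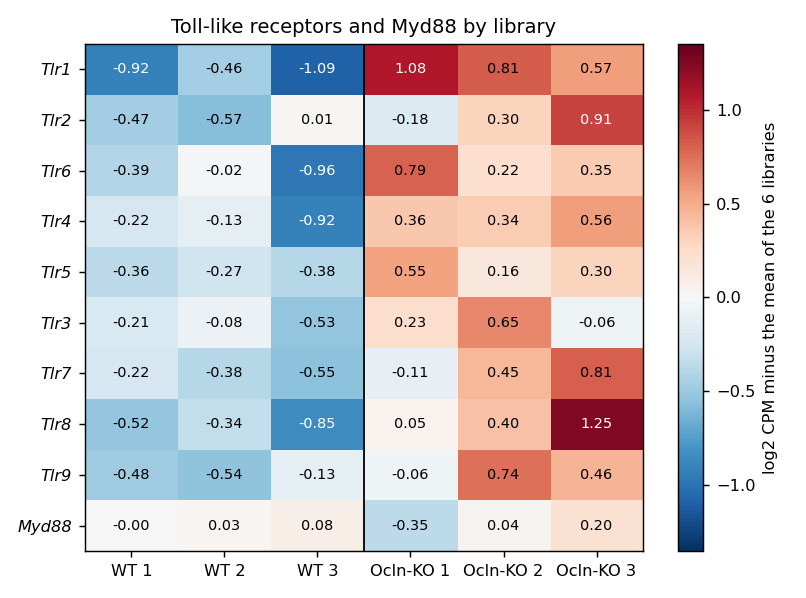
log2 CPM of each gene in each library, with a prior count of 2, minus its mean over the 6 libraries; red is above and blue below that mean. Tlr1 is highest in Ocln-KO replicate 1 (1.08 above its mean) and Tlr8 in Ocln-KO replicate 3 (1.25 above its mean), while Myd88 stays between -0.35 and 0.20.

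Levels of different genes were compared per kb of exon. In WT, Myd88 was the highest at 27.9 ± 0.775 CPM per kb (SD, n = 3), followed by Tlr5 at 4.53 ± 0.198, Tlr3 at 3.84 ± 0.593 and Tlr4 at 1.89 ± 0.517 CPM per kb, and the ranges of these 4 genes did not overlap in that order. Tlr7, Tlr9, Tlr2, Tlr8 and Tlr1 followed, from 1.12 to 0.557 CPM per kb, and each neighbouring pair among them overlapped. Tlr6 was the lowest at 0.326 ± 0.108 CPM per kb, below the range of Tlr1. In Ocln-KO, Tlr5 and Tlr3, at 7.26 ± 1.0 and 5.69 ± 1.43 CPM per kb (SD, n = 3 each), overlapped. Tlr1 moved from rank 9 to rank 6 of the 10 genes, at 1.76 ± 0.319 CPM per kb, with a range that overlapped those of Tlr7 and Tlr8. Of the level per kb summed over the receptors, Tlr1 held 3.41% to 4.45% in WT and 5.65% to 8.62% in Ocln-KO. Tlr5 and Tlr3 together held 56.5% to 57.3% in WT and 44.4% to 56.6% in Ocln-KO. Reference exon length stood for the transcripts in use, which were not measured.

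**Figure D4:**
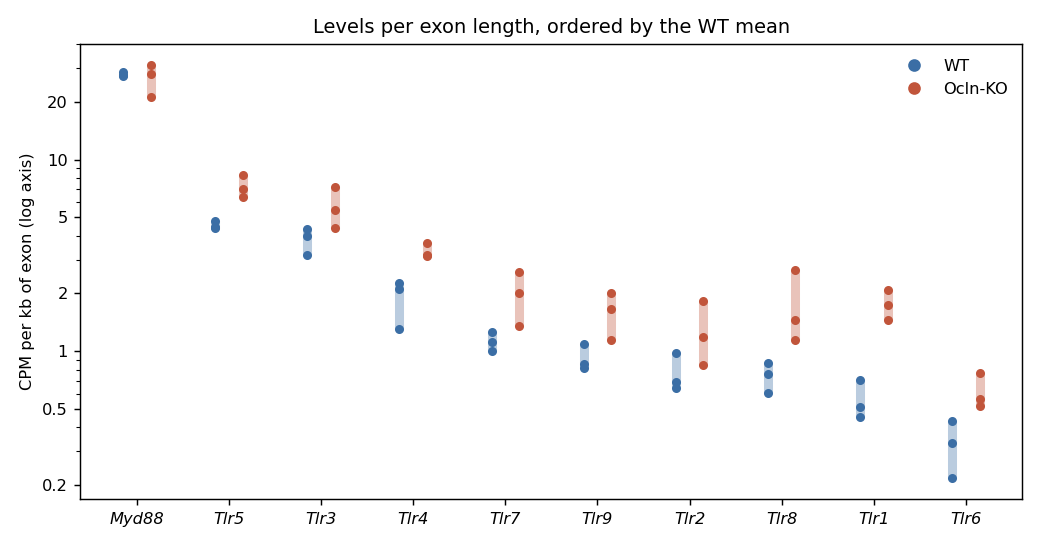
CPM per kb of exon for each gene, on a log axis and ordered by the WT mean, with a point per library (3 WT and 3 Ocln-KO) and a shaded bar from the lowest to the highest of each genotype. Myd88 is the highest in both genotypes, then Tlr5 and Tlr3, and Tlr6 is the lowest.

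Promoter sequences were read from RefSeq windows of GRCm38.p6, cut to the 250 bases before each RefSeq start. They matched 8 of the 10 genes (all but Tlr4 and Tlr7) with 10 windows, of which Tlr1 and Tlr6 have a pair each. Gene spans are those of RefSeq over all its transcripts and exons are those of GENCODE, and their starts can differ. Some windows therefore hold GENCODE exon bases of their own gene, 159 of 250 for Tlr2 and 5 for the Tlr1 window shown. The windows of the receptors that rose, Tlr1 and Tlr5, are shown with those of Tlr8, the endosomal receptor with the highest fold change, and of Myd88, whose level did not separate the genotypes. For Tlr1 the window farther upstream is shown; the other (chr5:64932700-64932949), of which 211 bases are GENCODE exon of Tlr1, held no match. Capitals mark letters that match, on either strand, the ETS core GAGGAA bound by Spi1 and its relatives, the NF-kB type site GGGANTTCC, or the interferon-stimulated response element GAAANNGAAA.
Tlr1, chr5:64933559-64933808, minus strand: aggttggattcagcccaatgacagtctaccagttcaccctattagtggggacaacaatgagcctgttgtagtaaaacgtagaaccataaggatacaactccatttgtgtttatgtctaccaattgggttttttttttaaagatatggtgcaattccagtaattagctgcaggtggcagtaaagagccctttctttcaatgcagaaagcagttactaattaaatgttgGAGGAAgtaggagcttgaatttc
Tlr5, chr1:182954538-182954787, plus strand: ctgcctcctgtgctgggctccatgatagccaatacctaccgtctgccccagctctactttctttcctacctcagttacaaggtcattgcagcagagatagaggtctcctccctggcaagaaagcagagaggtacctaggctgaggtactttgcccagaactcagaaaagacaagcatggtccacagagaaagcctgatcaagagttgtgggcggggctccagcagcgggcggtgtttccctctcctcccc
Tlr8, chrX:167264330-167264579, minus strand: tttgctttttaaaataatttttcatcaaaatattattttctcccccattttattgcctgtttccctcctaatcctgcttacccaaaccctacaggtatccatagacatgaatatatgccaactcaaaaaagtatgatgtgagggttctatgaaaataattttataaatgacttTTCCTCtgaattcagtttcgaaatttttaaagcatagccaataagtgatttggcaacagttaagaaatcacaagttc
Myd88, chr9:119340019-119340268, minus strand: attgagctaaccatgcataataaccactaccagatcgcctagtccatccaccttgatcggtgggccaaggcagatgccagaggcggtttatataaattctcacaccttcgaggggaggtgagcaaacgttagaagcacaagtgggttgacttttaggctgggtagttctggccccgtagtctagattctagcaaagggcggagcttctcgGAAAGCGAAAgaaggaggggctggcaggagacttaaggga
The ETS core was found in the windows of Tlr1, Tlr8 and Tlr9, and in those of 25.9% of all 27025 genes. In the Tlr1 window shown it lay 23 bases before the start that the window ends at, and so inside the RefSeq span of the gene given above, which begins farther upstream. In Tlr8 it lay 77 bases before the start on the other strand, and reads TTCCTC as printed. The NF-kB type site was found for Tlr2 alone, as an overlapping pair of matches 172 and 171 bases before the start, against 1.6% of all genes. This pair also lay inside the RefSeq span of Tlr2 given above. The interferon-stimulated response element was found in 1 of the Tlr6 windows and for Myd88, in the latter 40 bases before the start, against 3.5% of all genes. That Tlr6 window (chr5:64959167-64959416) lay inside the RefSeq span of Tlr6. The windows of Tlr5 and Tlr3 held no match to these letters. That of Tlr3 lay inside the RefSeq span of the gene, and 178 of its 250 bases are GENCODE exon of Tlr3. Such matches describe the sequence only, and binding was not measured.

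For each gene, the gene whose log2 CPM ran most nearly in parallel over the 6 libraries was found among 16348 genes with a mean of at least 1 CPM, as the smallest distance between values centred on their own means. The nearest to Tlr1 was Cdkn2b, a cyclin-dependent kinase inhibitor gene, at a distance of 0.149, where the median gene lay at 2.18. For Tlr5 it was the telomere protein gene Terf1 at 0.130 (median 1.05). Tlr2 ran nearest to Ptafr, the receptor of platelet-activating factor, at 0.225, and Tlr3 nearest to Trim21, an intracellular antibody receptor, at 0.135. The nearest genes were Fmnl1 for Tlr7, Sox9 for Tlr8, Themis2 for Tlr9, Tlcd1 for Myd88 and the pseudogenes Znf41-ps for Tlr4 and Vmn2r-ps16 for Tlr6, at 0.0729 to 0.204. These distances describe the 6 libraries only.

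Other genes of the pathway were taken from 8 lists with 89 symbols, of which 73 were tested. Of these 73 genes, 10 rose and 1 fell in the same edgeR test, with Benjamini-Hochberg adjustment over all genes. Among all genes tested, 3.91% rose and 5.04% fell. The log2 fold change was above 0 for 51 of the 73 genes (median 0.24), against 50.9% of all genes. Among receptors beyond Tlr9, Tlr13 had a log2 fold change of 1.11 (adjusted p = 0.123) and Tlr11 of 0.35 (adjusted p = 0.707), and Tlr12 was too low to be tested.

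Of the 9 coreceptors and chaperones, 2 rose. Cd180, a receptor homologue that restrains Tlr4, had 2.08, 2.14 and 1.88 CPM in the WT libraries against 3.24, 6.06 and 6.63 CPM in the Ocln-KO libraries, with a log2 fold change of 1.38 (adjusted p = 0.0370). Unc93b1, which carries the endosomal receptors out of the endoplasmic reticulum, had 15.9, 15.9 and 14.5 CPM in the WT libraries against 21.6, 23.4 and 37.3 CPM in the Ocln-KO libraries, with a log2 fold change of 0.83 (adjusted p = 0.0474). Both genes were free of overlap between genotypes, and for both the highest value was in Ocln-KO replicate 3. Cd14 and Ly96, the partners of Tlr4, had log2 fold changes of 0.33 and -0.18, did not pass and were picked out with their values known. Cd36, a scavenger receptor that works with Tlr2 and Tlr6, had -0.69 (adjusted p = 0.0688).

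Of the 18 adaptors and kinases, 2 rose and their median log2 fold change was 0.00. Those 2 were the kinases of the interferon branch. Ikbke went from 5.99 ± 1.37 to 12.0 ± 3.09 CPM (SD, n = 3 per genotype), with a log2 fold change of 1.01 and an adjusted p of 0.0448. Tbk1 went from 52.8 ± 1.34 to 66.0 ± 2.32 CPM (SD, n = 3 per genotype), with a log2 fold change of 0.32 and an adjusted p of 0.0459. Irak1, the kinase recruited by Myd88, had -0.29 (adjusted p = 0.113). Of the 12 transcription factors, Atf3, a repressor induced by these receptors, rose from 1.72 ± 0.348 to 4.13 ± 0.0907 CPM (SD, n = 3 per genotype), with a log2 fold change of 1.26 and an adjusted p of 0.0290. Irf8, a factor of myeloid cells, rose by 0.48 (adjusted p = 0.0448). Rela, the main NF-kB subunit, had -0.39 (adjusted p = 0.0840), and Irf5, which acts downstream of Tlr7 and Tlr9, had 0.80 (adjusted p = 0.0849).

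The negative regulators held the only gene of these lists that fell. Sarm1, a TIR domain protein that restrains Ticam1 signalling and is best known as an NAD hydrolase of axons, lies on chromosome 11 from 78470273 to 78497816. It had 13.3, 17.2 and 18.6 CPM in the WT libraries against 2.24, 1.82 and 0.651 CPM in the Ocln-KO libraries. Every Ocln-KO library was far below every WT library, and the log2 fold change of Sarm1 was -3.38 (SE 0.40, adjusted p = 0.00957). It passed in 10 of 13 alternative settings, and without WT replicates 1 and 3 the adjusted p was 0.0557 and 0.0601. Irak3, an inhibitory member of the Irak family, rose from 4.69 ± 0.729 to 8.92 ± 0.817 CPM (SD, n = 3 per genotype), with a log2 fold change of 0.93 and an adjusted p of 0.0302. The other 9 of the 11 negative regulators did not pass.

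Of 20 target genes of the pathway, 8 were abundant enough to be tested and 1 rose, Lcn2, an iron-sequestering antibacterial protein, with 102, 141 and 96.2 CPM in the WT libraries against 159, 257 and 273 CPM in the Ocln-KO libraries and a log2 fold change of 1.02 (adjusted p = 0.0362). Tnf, Il12a and Ifnb1 had 0 counts in every library, which allows up to 0.0802 to 0.0942 CPM (3 counts, counting error only). Cxcl1, a neutrophil chemokine, had at most 1 count in a library. Nfkbiz, an NF-kB regulator induced through Myd88, had a log2 fold change of 0.63 (adjusted p = 0.0568). Among endogenous ligands, Tnc, a matrix protein recognised by Tlr4, rose with a log2 fold change of 1.36 (adjusted p = 0.0490), while S100a8, another ligand of Tlr4, had at most 1 count in a library. Among the 8 genes of the IL-1 family, whose receptors use Myd88, the receptor gene Il18r1 rose by 1.31 (adjusted p = 0.0290). All 10 pathway genes that rose lost the call when WT replicate 1, WT replicate 2, WT replicate 3 or Ocln-KO replicate 2 was left out, while each kept its direction in 13 of 13 settings. With these libraries left out, in that order, 4, 85, 16 and 220 of all genes were called higher, against 770 with every library.

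**Figure D5:**
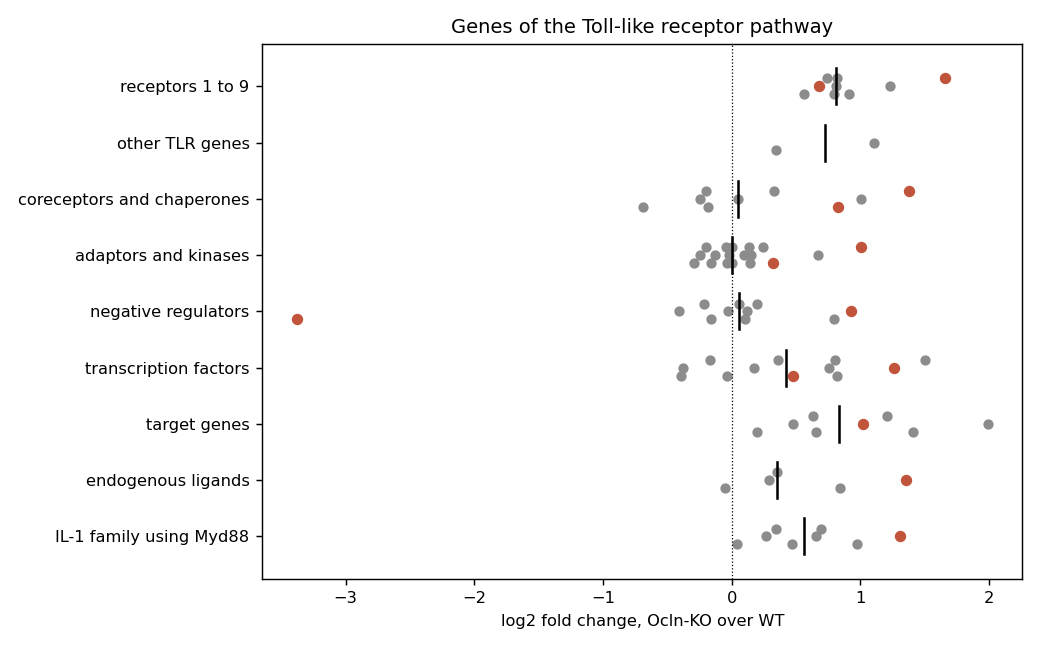
log2 fold change, Ocln-KO over WT, of each tested gene of the pathway lists and of the 9 receptors (points) with the median of each list (bars); red points had an adjusted p under 0.05 by edgeR. The medians are 0.81 for the receptors, 0.05 for coreceptors and chaperones and 0.00 for adaptors and kinases, and Sarm1 stands alone at -3.38.

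Most of these receptors are abundant on leukocytes. Of the 4 leukocyte markers tested, 3 had a log2 fold change above 0 and 1, Cd52, had it below 0. In RNA of a whole organ, more cells of a type and more RNA per cell cannot be told apart. Ptprc, which encodes the leukocyte antigen CD45, rose from 15.1, 13.3 and 10.8 CPM in WT to 29.2, 38.6 and 46.3 CPM in Ocln-KO (log2 fold change 1.54, adjusted p = 0.0110 by edgeR). It was the only gene called among the 4 tested of the 5 leukocyte genes. Cd52 went the other way, with 2333 to 2711 CPM in WT and 348 to 1630 CPM in Ocln-KO (log2 fold change -1.24, adjusted p = 0.127 by edgeR), and Laptm5 was too low to be tested, with means of 0.489 and 0.271 CPM. The sum of the full list was 2359 to 2736 CPM in WT and 428 to 1694 CPM in Ocln-KO. Most of it was Cd52, which is also abundant in epididymal epithelium, so this sum does not follow leukocytes alone. Without Cd52, which was left out after its values were seen, the sum was 24.3 to 30.9 and 46.0 to 79.7 CPM. The macrophage and monocyte list summed to 241 to 287 CPM in WT and to 302, 359 and 543 CPM in Ocln-KO, with 12 of 13 tested genes above 0, 1 called higher (Ccr2, the receptor that brings monocytes into tissue) and Aif1 at 0. This order of the Ocln-KO libraries is that of Tlr2, Tlr7, Tlr8 and Myd88 and is the opposite of that of Tlr1. The part of these cells in the receptor levels was not tested.

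Other immune lists were followed as well, at lower levels. The 6 dendritic cell genes summed to 16.3 to 19.6 CPM in WT and 25.5 to 40.4 CPM in Ocln-KO, with 0 called by edgeR and 4 at an unadjusted p under 0.05. The T and NK cell list summed to 2.62 to 3.66 and 4.89 to 9.0 CPM and the B cell list to 0.850 to 1.10 and 1.29 to 3.31 CPM, with 0 genes called in either by edgeR and 4 and 0 genes at an unadjusted p under 0.05. Mast cell genes summed to 0.996 to 1.44 and 2.90 to 6.34 CPM. Cpa3 and Cma1, proteases of their granules, rose by 2.56 and 2.35 on the log2 scale (adjusted p = 0.0373 and 0.0241 by edgeR). Only 5 to 23 and 7 to 9 counts per WT library stood behind these changes. Tpsb2, the other mast cell gene tested, overlapped between genotypes (log2 fold change 1.17, adjusted p = 0.250 by edgeR). Of the 7 neutrophil genes, 5 (Ly6g, Cxcr2, Mpo, Elane and Camp) had at most 3 counts in each library, and the list summed to 0.592 to 2.11 and 1.96 to 4.91 CPM.

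Cells of the duct and its wall were followed in the same way. Endothelial genes summed to 73.8 to 88.4 CPM in WT and 76.9 to 96.0 CPM in Ocln-KO with 0 of 5 called by edgeR (1 at an unadjusted p under 0.05, Kdr, lower), and fibroblast genes to 1691 to 1873 and 1225 to 3231 CPM with 0 of 5 called (1 at an unadjusted p under 0.05, Lum, higher). The general epithelial genes summed to 1454 to 1625 and 1236 to 1609 CPM, with Krt19 called higher. Of these 6 genes, 4 had a log2 fold change below 0, and Krt8 was lower at an unadjusted p under 0.05 by edgeR. The basal cell genes summed to 205 to 210 and 210.2 to 251 CPM, with Krt14 called higher. Of these 4 genes, 3 had a log2 fold change above 0 and 1, Itga6, had it below 0. The principal cell genes summed to 20435 to 24997 CPM in WT and 11321 to 17225 CPM in Ocln-KO, with 0 of 4 called (1 at an unadjusted p under 0.05, Crisp1, lower). Sperm and spermatid genes summed to 178 to 227 CPM in WT and 56.8 to 239 CPM in Ocln-KO, the lowest in Ocln-KO replicate 3, with 0 of 5 called and 0 at an unadjusted p under 0.05. Which cells carried the reads of Tlr5, Tlr3 and Tlr4, the most abundant receptors, was not measured in this organ-level RNA.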

How the data were processed

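Total RNA of whole epididymis was sequenced from 3 WT and 3 Ocln-KO libraries. As the methods describe, RNA was extracted with Trizol and depleted of rRNA, directional libraries were sequenced as paired ends, and reads were assigned to genes with HTSeq. The submitters' processing notes name HISAT2 2.0.4 and GRCm38; counting mode and strand setting are not given in the sources used here. The values deposited by the authors are raw count data per gene and library and were not normalized. The methods speak both of separate extraction from pairs of mice and of pooled RNA, so n counts libraries and p-values measure the spread between these, which may be technical. An extraction text in the labels names prefrontal cortex, while tissue labels give whole epididymis.

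Each count column was matched to its sample by name. Of the symbols listed, 28 had been turned into dates or numbers by a spreadsheet (0.145% of counts) and 2 were repeated; none was one of the genes described. In R 4.3.3, genes were kept by filterByExpr, scaled by TMM factors and tested with edgeR 4.0.16 (glmQLFit, glmQLFTest, common dispersion 0.0577), with Benjamini-Hochberg adjustment over 19691 genes. The standard error of a log2 fold change was taken as its size over the root of F. Alternatives were DESeq2 1.42.0, limma-voom (limma 3.58.1), RLE factors, scaling by total counts, omitting the count filter, requiring 10 counts in each library, blocking on the replicate number, a fold change over 2 as well, and each library left out. Total counts of 30646424 to 38870780 make 3 counts, the limit used for a value of 0, 0.0802 to 0.0942 CPM.

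Gene coordinates and promoter sequences come from RefSeq, and exon lengths and overlaps from GENCODE, both for GRCm38.p6. The genes named outside the 10 are Ocln, in each pathway list at most 4 of the smallest adjusted p and any with at most 3 counts in every library, and the nearest gene of each of the 10; Cd14, Ly96 and the marker genes were picked out with their values known. The genes described and the lists were chosen with earlier results of these data known.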

Additional observations from a re-analysis of the deposited data

How the results depend on the processing

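The log2 fold change of each of the 9 receptors was above 0 in 13 of 13 alternative settings, and Tlr1 and Tlr5 kept an adjusted p under 0.05 in 10 and 9 of them. Of the 10 genes, 2 were called higher with edgeR, 7 with DESeq2, 4 with no count filter, 0 with the replicate block, 1 with a fold change over 2 as well, and 0 to 4 with a library left out (0, 1 and 0 without WT replicates 1, 2 and 3, and 4, 2 and 3 without Ocln-KO replicates 1, 2 and 3); 0 were called lower in any setting. The log2 fold change of Myd88 alone changed sign, to 0.0284 when scaled by total counts and, between -0.179 and 0.0936 with a library left out, to 0.0936 without Ocln-KO replicate 1. Of all genes, 770 were higher and 992 lower with edgeR, 1604 and 1708 with DESeq2, and 942 and 1216 with no count filter. The replicate block gave 10 and 31, and the fold threshold 293 and 335. Total counts only gave 1175 higher and moved the median log2 fold change of all genes from 0.01 to 0.09. Leaving out a library gave 4 to 782 higher and 19 to 944 lower. Of the pathway genes, 10 were higher and 1 lower with edgeR, 16 and 2 with DESeq2 and 0 and 0 with the replicate block; 6 were higher with the fold threshold, and 0 to 14 were higher and 0 to 1 lower with a library left out. The cause of these differences was not tested. Deviations of libraries with the same replicate number correlated at -0.05, -0.03 and 0.00, and no library correlated best with its own number. Deviations from a mean of 3 libraries sum to 0 within each genotype, so these values cannot decide whether the libraries were paired. Depth limits Tlr6 and Tlr1 most, with as few as 30 and 56 counts in a library.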
